A study of Mus musculus with 6 samples.

Results

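Chaperones fold newly made proteins, refold damaged ones and hold clients until a partner takes them over. The genes described here are 40 chaperone and heat shock genes, chosen by symbol from the 31205 genes of a read count table, and all 40 were found in it. They cover the heat shock transcription factors, the cytosolic HSP90 and HSP70 machines with their J proteins and exchange factors, the small heat shock proteins, chaperones of the endoplasmic reticulum (ER), chaperones of mitochondria, and subunits of the chaperonin ring CCT/TRiC. The 2 groups were PD-L1 KO, a derivative of the mouse dendritic cell line DC2.4 whose genotype is labelled PD-L1 knockout, and Control, the DC2.4 line itself, with 3 RNA-seq libraries each. The labels name no treatment, age or clone, and name no separate cultures within a group, so the p-values measure the spread between libraries, which may be technical. In bulk RNA, fewer cells of a type and less RNA per cell cannot be told apart.

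HSP70 binds short hydrophobic stretches of a client in a cycle of ATP binding and hydrolysis. J proteins (DNAJ) deliver the client and trigger hydrolysis, exchange factors (HSP110, BAG) release the nucleotide, and STIP1 passes clients on to HSP90. The chaperonin ring encloses actin, tubulin and other cytosolic proteins, while the HSPD1 and HSPE1 pair forms the folding chamber of the mitochondrial matrix. After proteotoxic stress, heat shock factor 1 (HSF1) binds repeats of an inverted pentamer, the heat shock element, and in the ER the unfolded protein response acts through the ER stress element.

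The promoter letters of these 2 responses are shown first, because members that carry them can be followed through the results below. RefSeq promoter windows (GRCm38.p6, 250 bases before to 50 after each start) were found for 33 of the 40 members. A heat shock element was taken as 3 perfect units, TTC and GAA in turn, with 2 free bases between units. Either one could come first, each form being the reverse complement of the other. This element lay in a window of 4 of these 33 members, against 0.662% of all 27025 genes with a window. An ER stress element, CCAAT, 9 free bases and CCACG on either strand, lay in a window of 2 of the 33, against 0.137% of all genes with a window. The lines give each match on the gene's own strand, with the element in capitals and 5 flanking bases on each side in lower case. A match describes letters and is not a test of binding.
Hspe1, heat shock element, chr1:55088054-55088081, plus strand: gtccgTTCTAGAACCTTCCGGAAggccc
Hspd1, heat shock element, chr1:55088054-55088081, minus strand: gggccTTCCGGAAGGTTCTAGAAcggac
Dnajb6, heat shock element, chr5:29735847-29735869, plus strand: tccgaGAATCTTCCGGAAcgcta
Hsph1, heat shock element, chr5:149636283-149636305, minus strand: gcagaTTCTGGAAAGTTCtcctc
Hsp90b1, ER stress element, chr10:86705633-86705661, minus strand: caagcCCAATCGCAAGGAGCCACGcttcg
Hsp90b1, ER stress element, chr10:86705528-86705556, minus strand: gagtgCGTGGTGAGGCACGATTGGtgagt
Dnajc3, ER stress element, chr14:118937822-118937850, plus strand: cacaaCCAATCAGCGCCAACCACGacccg

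Hspe1 and Hspd1 are divergent neighbours and share a single element, read here from both strands, in which overlapping matches give a longer run of inverted repeats. It lies 89 to 72 bases before the Hspe1 start and 144 to 127 bases before an Hspd1 start, both starts being RefSeq's. In the GENCODE positions used below Hspe1 starts at 55088132 and Hspd1 reaches to 55088243, so the element lies within the Hspd1 span. The Hsph1 element lies past the start, in transcribed sequence. The 250 bases before the Hspe1 start (chr1:55087898-55088147, plus strand) show where the shared element sits, in capitals.
Hspe1 promoter: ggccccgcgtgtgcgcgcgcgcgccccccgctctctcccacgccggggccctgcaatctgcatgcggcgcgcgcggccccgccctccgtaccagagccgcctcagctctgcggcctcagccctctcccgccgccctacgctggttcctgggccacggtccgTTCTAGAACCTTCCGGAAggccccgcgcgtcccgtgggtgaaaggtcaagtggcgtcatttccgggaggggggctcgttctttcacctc

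The PD-L1 KO libraries held 13501776 to 21133688 counts and the Control libraries 10918498 to 23250065. The targeted gene, Cd274, which encodes PD-L1, had 102, 81 and 163 counts in PD-L1 KO libraries 1, 2 and 3, against 52, 99 and 171 in Control, so its transcript count does not check the knockout label. The leukocyte marker Ptprc (180 to 206 CPM, counts scaled to library size, in PD-L1 KO and 217 to 256 in Control) and the myeloid factor Spi1 (142 to 203 and 147 to 165) were present. Of 13 tested dendritic and myeloid markers 1 was higher, Fcer1g (log2 fold change 0.76), and 4 were lower, Lyz2 (-2.81), Fcgr1 (-1.18), Csf1r (-0.72) and Zbtb46 (-0.72), and their part in the chaperone differences was not tested. Among these markers Flt3, a receptor of conventional dendritic cells, had 1 count in PD-L1 KO library 2, 1 in Control library 2 and 0 elsewhere. Control library 2 held 2235 counts of Col1a1 and 1382 of Fn1, from a list of fibroblast markers, with at most 5 and 3 in any other library. Sparc (103) and Acta2 (59) were also highest there. The same library held 22 counts of Col1a2, 10 of Col3a1, 7 of Pdgfrb and 6 of Col5a1, with 0 of Pdgfra, Col6a1 and Postn. The 14 fibroblast markers summed to 0.249 to 1.01 CPM in PD-L1 KO, and in Control to 227 CPM in library 2 with 0.719 and 1.34 in the other two; Dcn, Lum and Thy1 were at 0 in all 6 libraries. PD-L1 KO library 1 stood apart from the other PD-L1 KO libraries on the second principal component (38, with -10.9 and -15.6). The part of either library in the results was not tested. Counts of called genes with and without these libraries are given below for all members, the cytosolic members together, and the ER, mitochondrial and ring members. They are also given for the further gene lists other than HSF1 targets and cell markers.

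Most chaperone genes did not pass the test, and those that did were nearly all higher in PD-L1 KO cells. The 40 members together made up 2.29%, 2.94% and 2.73% of the counts in PD-L1 KO libraries 1, 2 and 3, against 2.13%, 2.19% and 2.22% in Control. Of the 36 members with enough counts to be tested, 13 were higher (36.1%), 1 was lower and 22 did not pass (edgeR's quasi-likelihood test, adjusted p under 0.05 over all genes). Over all 11453 genes tested, 11.8% were higher and 13.5% lower. The median log2 fold change of the 36 was 0.38, with 0.01 over all genes, and 34 of the 36 were above 0 (5844 of the 11453). All PD-L1 KO libraries lay above all Control libraries for 20 members (55.6%), against 21.1% of all genes. Under plain total-count scaling, where the all-gene median shifted by -0.15, 8 members were higher, and over all genes 667 were higher and 2212 lower, in place of 1353 and 1543.

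Chaperones are abundant, and abundant genes were called higher more often in these libraries. Among genes averaging at least 100 CPM, 12 of 25 members were higher (48%), while 21.1% of all 2356 such genes were. At 1000 CPM or more the shares were 42.9% of 7 members and 50.6% of 87 genes, so at the top of the range the members were not called more often than other genes. Short genes were also called higher more often. With genes in 3 equal bins by exon length, 22.4% of the shortest bin were higher, 9.3% of the middle bin and 3.82% of the longest. Long genes were called lower more often, at 196 of 3799 in the shortest bin, 357 of 3797 in the middle bin and 990 of 3798 in the longest. The members higher were 8 of 16 in the shortest bin (50%), 3 of 10 in the middle bin (30%) and 2 of 10 in the longest (20%).

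**Figure D1:**
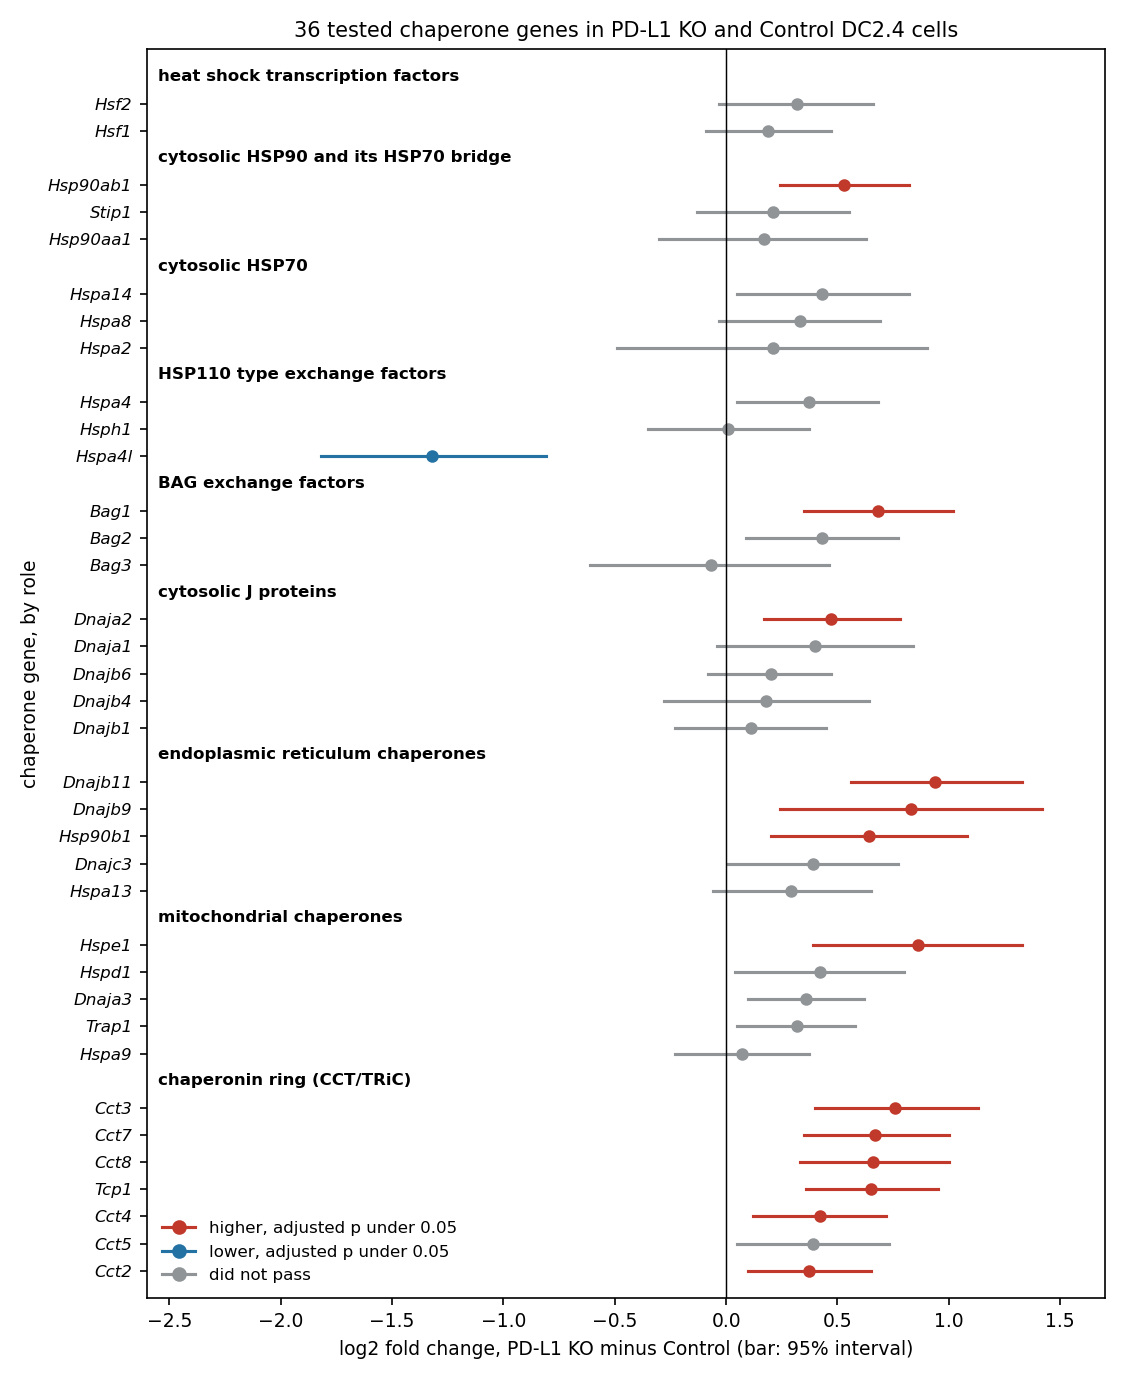
Log2 fold change (PD-L1 KO minus Control) of the 36 tested chaperone genes by role, each with its 95% interval; red genes were higher, the blue gene lower and grey genes did not pass at an adjusted p of 0.05. Of the 7 chaperonin ring genes 6 were higher (85.7%, against 11.8% over all genes), and Hspa4l, at -1.32, was the only member that was lower.

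The libraries of a group did not behave alike. PD-L1 KO library 1 was the lowest of the 3 PD-L1 KO libraries for 29 of the 36 members, and PD-L1 KO library 2 was the highest for 29. The summed level of the 40 members was 23381, 32181 and 28662 CPM in PD-L1 KO libraries 1, 2 and 3, against 20768, 20608 and 20635 CPM in Control. All PD-L1 KO libraries were above all Control libraries on this sum, and the Control libraries were nearly equal. Without PD-L1 KO library 1, 22 members were higher and 1 lower, and without PD-L1 KO library 2, 4 were higher and 1 lower. Without Control library 2, 1 was higher and 1 lower, although the median over the members stayed at 0.38. Over all genes, that setting left 166 higher and 472 lower.

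**Figure D2:**
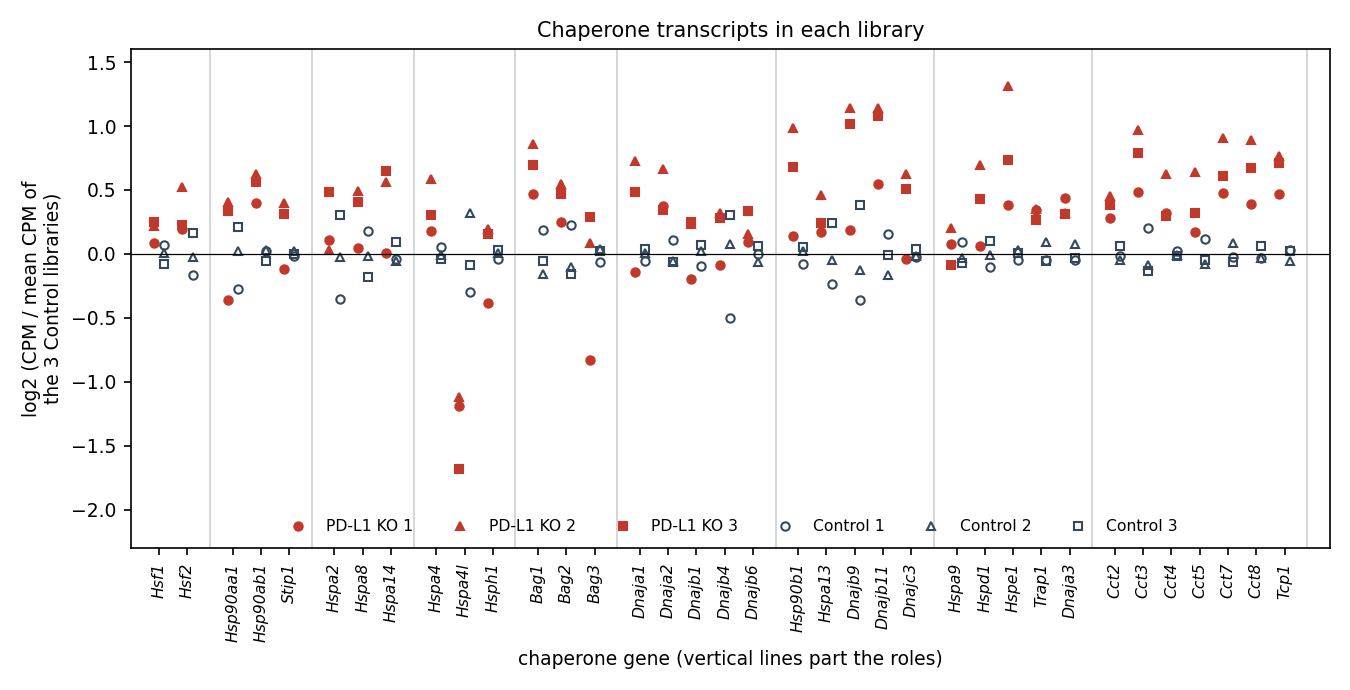
Level of each tested chaperone gene in each library, as log2 of its CPM over the mean CPM of the 3 Control libraries, with PD-L1 KO libraries as filled red symbols to the left of Control libraries as open symbols. PD-L1 KO library 1 (filled circles) is the lowest PD-L1 KO library for 29 of the 36 genes.

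The regulators of the heat shock response did not pass the test. Hsf1, the factor that drives heat shock genes, had 63.6, 69.6 and 71.2 CPM in PD-L1 KO, against 62.6, 60.03 and 56.8 in Control (log2 fold change 0.19, SE 0.12, adjusted p = 0.274). Hsf2, a related factor, averaged 27.4 ± 3.54 CPM in PD-L1 KO and 21.9 ± 2.55 in Control (SD, n = 3; 0.32, SE 0.15, edgeR adjusted p = 0.151). For both the groups did not overlap. When trends with exon length and GC were taken out of each library, Hsf1 and Hsf2 both passed as higher. Both also passed with chromosome medians removed as well. But with the length of the main transcript in place of all exons neither did (0.05, adjusted p = 0.757 and 0.20, adjusted p = 0.233).

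The stress-inducible HSP70 genes had almost no counts in either group. Hspa1a had 0, 1 and 1 counts in PD-L1 KO libraries 1, 2 and 3 and 0, 1 and 0 in Control. Hspa1b had 1, 2 and 2 counts in PD-L1 KO and 0, 35 and 3 in Control, the 35 being in the library with the Col1a1 and Fn1 counts. These 2 genes are nearly identical copies, so reads shared between them may have been dropped or split. Hspb1, the small heat shock protein HSP27, had 2, 10 and 4 counts in PD-L1 KO and 2, 0 and 2 in Control, and Hspb8, a partner of BAG3 in selective autophagy, had 0 in all 6, where 3 counts would be 0.149 to 0.226 CPM in PD-L1 KO and 0.12 to 0.268 CPM in Control. None of these 4 members had enough counts to be tested. With no filter on low counts Hspa1b passed as lower (-2.74, edgeR adjusted p = 0.0427), its counts in Control being the 35 in library 2 and 3 in library 3.

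Of the cytosolic HSP90 genes and their bridge to HSP70, 1 of 3 was higher (33.3%), against 11.8% over all genes. Hsp90ab1, the constitutive HSP90 (chromosome 17, 45567775 to 45573271, mm10), had 4399, 5141 and 4934 CPM in PD-L1 KO, against 3389, 3418 and 3212 in Control. Every PD-L1 KO library was above every Control library, and Hsp90ab1 was higher (log2 fold change 0.53, SE 0.13, adjusted p = 0.0174). The call was lost without PD-L1 KO library 2 or 3 or Control library 2 or 3 (adjusted p = 0.0514 to 0.0935), with length and GC trends removed (0.36, 0.0574) and with chromosome medians removed as well (0.03, 0.898). Hsp90aa1, the stress-inducible HSP90, had 1828, 3108 and 2956 CPM in PD-L1 KO, against 1944, 2384 and 2709 in Control. The lowest of all 6 was PD-L1 KO library 1, the groups overlapped and the test was not passed (0.17, SE 0.21, adjusted p = 0.584). Stip1, which bridges HSP70 and HSP90, averaged 547 ± 97.9 CPM in PD-L1 KO and 472 ± 7.01 in Control (SD, n = 3) and did not pass (0.21, edgeR adjusted p = 0.316).

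Hspa8, the constitutive HSP70, had 2771, 3780 and 3561 CPM in PD-L1 KO, against 3038, 2654 and 2369 in Control, with overlapping groups (0.33, SE 0.16, adjusted p = 0.154). Per kilobase of the main transcript, it stood at 1408 CPM in PD-L1 KO and 1122 in Control, below Hsp90ab1 at 1915 and 1325. Hspa14, a ribosome-associated HSP70, averaged 99.4 ± 22.4 CPM in PD-L1 KO and 73.6 ± 4.19 in Control and did not pass (0.43, adjusted p = 0.0881), nor did Hspa2, known from spermatogenesis, at 2.53 ± 0.44 and 2.17 ± 0.49 (0.21, adjusted p = 0.645). HSP90 and HSP70 genes have processed pseudogenes in the mouse, and how reads shared with them were counted was not given.

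Hspa4l, an HSP110-type exchange factor (chromosome 3, 40744495 to 40796103), was the only member that was lower. It had 7.70, 8.06 and 5.47 CPM in PD-L1 KO, against 14.2, 21.9 and 16.5 in Control. The highest PD-L1 KO library was well below the lowest Control library, and the fold was 0.402 (log2 fold change -1.32, SE 0.23, adjusted p = 0.00503). The call held in every setting tried, with log2 fold changes of -1.47 to -0.74. Hspa4l has 11792 bases of exon and falls in the longest bin, where 990 of 3798 genes were lower. The more abundant exchange factors of its family did not pass. Hspa4 had 698, 926 and 762 CPM in PD-L1 KO, against 640, 612 and 599 in Control (0.37, SE 0.14, adjusted p = 0.0802), without overlap. Hsph1 averaged 261 ± 54.3 CPM in PD-L1 KO and 259 ± 6.45 in Control (0.01, 95% interval -0.35 to 0.37, adjusted p = 0.967); its element is printed above.

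Among the BAG exchange factors, Bag1, which links HSP70 to the proteasome (chromosome 4, 40936398 to 40948294), had 208, 273 and 243 CPM in PD-L1 KO, against 171, 135 and 145 in Control. It was higher, without overlap (0.68, SE 0.15, adjusted p = 0.0126), a call lost without PD-L1 KO library 2 (0.0522) or Control library 2 (0.0763) and with length and GC trends removed (0.37, 0.0515). Bag2 did not pass, at 67.6, 83.3 and 78.6 CPM in PD-L1 KO and 66.6, 53.1 and 51.0 in Control (0.43, adjusted p = 0.0603). Bag3, an HSF1 target, had 27.8, 52.2 and 60.2 CPM in PD-L1 KO, against 47.1, 50.7 and 50.03 in Control. Here PD-L1 KO library 1 lay below all Control libraries and PD-L1 KO libraries 2 and 3 above them (-0.07, SE 0.24, adjusted p = 0.839).

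Of the 5 cytosolic J proteins, 1 was higher (20%), against 11.8% over all genes. Dnaja2, a co-chaperone of HSPA8 (chromosome 8, 85537633 to 85555344), had 353, 432 and 345 CPM in PD-L1 KO, against 293, 262 and 260 in Control (0.47, SE 0.14, adjusted p = 0.0329). The groups did not overlap, but the call was lost with total-count scaling (adjusted p = 0.0808), with length and GC trends removed (0.221) and without PD-L1 KO library 2 or 3 or Control library 2 or 3 (0.0637 to 0.146). Dnaja1 had 182, 333 and 281 CPM in PD-L1 KO, against 194, 203 and 207 in Control, so that PD-L1 KO library 1 lay below the Controls (0.40, adjusted p = 0.154). The stress-inducible Dnajb1 (0.11), Dnajb4 (0.18) and Dnajb6 (0.20), an aggregation suppressor, did not pass, with adjusted p of 0.612, 0.538 and 0.254. Taking the HSP90, HSP70, exchange factor, J protein and small heat shock genes as the cytosolic set, 3 of 17 tested were higher (17.6%) and 1 lower (5.88%), with a median of 0.21, against 11.8% and 13.5% over all genes. Of the 17, 9 were higher without PD-L1 KO library 1 and 4 without Control library 1, by edgeR at an adjusted p of 0.05. None was higher without PD-L1 KO library 2 or without Control library 2, and 1 was without PD-L1 KO library 3 or without Control library 3.

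The ER chaperones had 3 of 5 genes higher and none lower, against 11.8% and 13.5% over all genes. Without PD-L1 KO library 1, 4 of the 5 were higher, without Control library 3, 2 were, and without any one of the other libraries 1 was. Dnajb11, a J protein of the ER lumen that works with the ER HSP70 (chromosome 16, 22857845 to 22879634), had 196, 295 and 282 CPM in PD-L1 KO, against 149, 120 and 133 in Control. The groups were well apart, with a 1.92-fold rise (0.94, SE 0.17, adjusted p = 0.00676), the largest log2 fold change among the members. It passed in all 18 settings tried, the only riser to do so, with log2 fold changes of 0.56 to 1.10. Hsp90b1, the ER HSP90 also called GRP94 (chromosome 10, 86690209 to 86705509), had 1574, 2819 and 2282 CPM in PD-L1 KO, against 1351, 1452 and 1481 in Control (0.64, SE 0.20, adjusted p = 0.0391). Only slightly above the Controls was PD-L1 KO library 1, and the call was lost without any other library (adjusted p = 0.0829 to 0.137). Dnajb9, an ER J protein that restrains the stress sensor IRE1 (chromosome 12, 44205559 to 44210326), had 14.6, 28.3 and 25.9 CPM in PD-L1 KO, against 10.02, 11.8 and 16.7 in Control. Inside the Control range fell PD-L1 KO library 1 (0.83, SE 0.27, adjusted p = 0.046), and the call was lost without any of 4 libraries (0.126 to 0.173), PD-L1 KO library 1 and Control library 3 being the exceptions.

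Dnajc3, an ER-resident co-chaperone whose promoter carries an ER stress element, had 90.7, 144 and 132 CPM in PD-L1 KO, against 91.5, 92.0 and 95.9 in Control. The first PD-L1 KO library was level with the Controls while the other PD-L1 KO libraries were above them, and the test was not passed (0.39, SE 0.17, adjusted p = 0.112). Hspa13, a microsomal HSP70, did not pass either (0.29, adjusted p = 0.195). A list of 26 further tested genes covered ER folding and the unfolded protein response. Of these, 9 were higher (34.6%) and none lower, against 11.8% and 13.5% over all genes. The median of the 26 was 0.44. Without PD-L1 KO library 1, 16 were higher and 1 lower. Without any other single library 3 to 6 were higher, the 3 being without Control library 2. With all libraries 22 of the 26 were above 0 and 17 did not pass. Those 17 included Ern1 (-0.31, adjusted p = 0.56), Atf6 (-0.11, 0.659), Eif2ak3 (-0.05, 0.838), Sel1l (-0.16, 0.447) and Xbp1 (0.51, 0.109), named after their values were seen. The calls with the lowest adjusted p and no overlap were Herpud1, an ER-associated degradation factor (1.29, SE 0.12, adjusted p = 0.000227), the ER chaperone complex member Sdf2l1 (1.19, SE 0.18, 0.00314), Creld2 (1.19, SE 0.22, 0.00629) and the stress transcription factor Ddit3 (1.67, SE 0.36, 0.0119). Ddit3 was highest in PD-L1 KO library 1, as Dnaja3 alone was among the tested members, at 39.9 CPM with 13.6 and 16.5 in libraries 2 and 3, against 6.98, 7.35 and 7.55 in Control. Hspa5, the ER HSP70 (BiP), named after its values were seen, had 1341, 2797 and 2586 CPM in PD-L1 KO, against 1185, 1291 and 1402 in Control. It passed (0.79, SE 0.24, adjusted p = 0.0383) although PD-L1 KO library 1 lay among the Controls.

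In mitochondria, 1 of 5 chaperones was higher (20%), against 11.8% over all genes. Without PD-L1 KO library 1, 2 of the 5 were higher. None was without PD-L1 KO library 2, Control library 1 or Control library 2. Hspe1, the lid of the matrix chaperonin (chromosome 1, 55088132 to 55091307), had 388, 739 and 495 CPM in PD-L1 KO, against 289, 305 and 300 in Control. Every PD-L1 KO library was above every Control library (0.86, SE 0.21, adjusted p = 0.018), with PD-L1 KO library 2 far above the rest. Its partner Hspd1, the chaperonin barrel, had 1824, 2827 and 2351 CPM in PD-L1 KO, against 1625, 1739 and 1875 in Control. One PD-L1 KO library, the first, fell within the Control range and the test was not passed (0.42, SE 0.17, adjusted p = 0.0932). The first exons of the pair overlap on opposite strands, and reads there cannot be assigned without strand. Hspe1 is also among the shortest members, and it was not called once length and GC trends were removed (0.45, adjusted p = 0.0724), nor without PD-L1 KO library 2 (0.57, 0.0502), Control library 1 (0.84, 0.0536) or Control library 2 (0.88, 0.0741).

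The other mitochondrial chaperones did not pass. Trap1, the mitochondrial HSP90, had 245, 247 and 233 CPM in PD-L1 KO, against 187, 207 and 187 in Control, and Dnaja3, a mitochondrial J protein, 144, 132 and 132 against 102, 112 and 104. Neither pair of groups overlapped, and neither passed (0.32, SE 0.12, adjusted p = 0.073 and 0.36, SE 0.12, adjusted p = 0.0501). Hspa9, the mitochondrial HSP70 mortalin, averaged 1025 ± 104 CPM in PD-L1 KO and 977 ± 59.7 in Control (SD, n = 3; 0.07, 95% interval -0.23 to 0.37, edgeR adjusted p = 0.718). The 263 tested genes of its chromosome, 18, had a median of -0.24. Among 20 partners and proteases of mitochondrial chaperones, 7 were higher (35%) and none lower, against 11.8% and 13.5% over all genes. The median of the 20 was 0.36. Leaving out PD-L1 KO library 1 gave 10 higher, and leaving out any other single library gave 1 to 6, the 1 being without Control library 2. They included the matrix protease subunit Clpp (0.87, SE 0.16, adjusted p = 0.00754), the prohibitin Phb2 (0.76, SE 0.17, 0.0134) and the import chaperones Timm13 (0.91, SE 0.20, 0.0138) and Timm9 (0.62, SE 0.15, 0.0174).

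The chaperonin ring had the largest share of called genes among the roles (85.7% higher, against 11.8% over all genes). Of its 7 subunit genes among the members, 6 were higher and none lower, with a median log2 fold change of 0.65. For all 7 every PD-L1 KO library lay above every Control library, as for 21.1% of all genes. All 7 averaged over 100 CPM, where 21.1% of all genes were higher. Cct3 averaged over 1000 CPM, where 50.6% of all genes were. Cct3 (chromosome 3, 88297116 to 88321767) had 1618, 2273 and 2002 CPM in PD-L1 KO, against 1331, 1091 and 1055 in Control (0.76, SE 0.16, adjusted p = 0.0117). Cct7 (chromosome 6, 85451514 to 85468475) had 874, 1181 and 958 CPM in PD-L1 KO, against 621, 666 and 601 in Control (0.67, SE 0.15, adjusted p = 0.0122). These subunits were called in 17 of 18 settings, the exception being the fit without Control library 2 (adjusted p = 0.0724 for Cct3 and 0.0562 for Cct7).

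Cct8 (chromosome 16, 87483326 to 87495873) had 753, 1070 and 915 CPM in PD-L1 KO, against 564, 564 and 600 in Control (0.66, SE 0.15, adjusted p = 0.0143). Tcp1, the subunit also called CCT1 (chromosome 17, 12915701 to 12925067), had 836, 1022 and 986 CPM in PD-L1 KO, against 617, 580 and 612 in Control (0.65, SE 0.13, adjusted p = 0.00908). In both the Control libraries were tight and the PD-L1 KO libraries clear of them. Both calls were lost without Control library 2 (adjusted p = 0.0785 for Cct8 and 0.0667 for Tcp1), and that of Cct8 also without PD-L1 KO library 2 (0.0531). Cct4 (chromosome 11, 22990519 to 23003780) had 548, 676 and 538 CPM in PD-L1 KO, against 446, 436 and 433 in Control (0.42, SE 0.13, adjusted p = 0.045). Cct2 (chromosome 10, 117051001 to 117063814) had 925, 1041 and 993 CPM in PD-L1 KO, against 752, 735 and 796 in Control (0.37, SE 0.12, adjusted p = 0.0497). Those 2 calls sat at the threshold: Cct4 was called in 7 and Cct2 in 3 of the 18 other settings. Cct5 had 717, 992 and 791 CPM in PD-L1 KO, against 689, 602 and 616 in Control, and did not pass (0.39, SE 0.15, adjusted p = 0.0813). Cct6a, a further ring subunit from the list of helpers, overlapped between groups (0.33, SE 0.15, adjusted p = 0.125). Without Control library 2, none of the 7 ring members passed in edgeR, at a median of 0.63; without PD-L1 KO library 2, 3 passed, and without PD-L1 KO library 1, or with DESeq2's Wald test on all libraries, 7 passed.

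**Figure D3:**
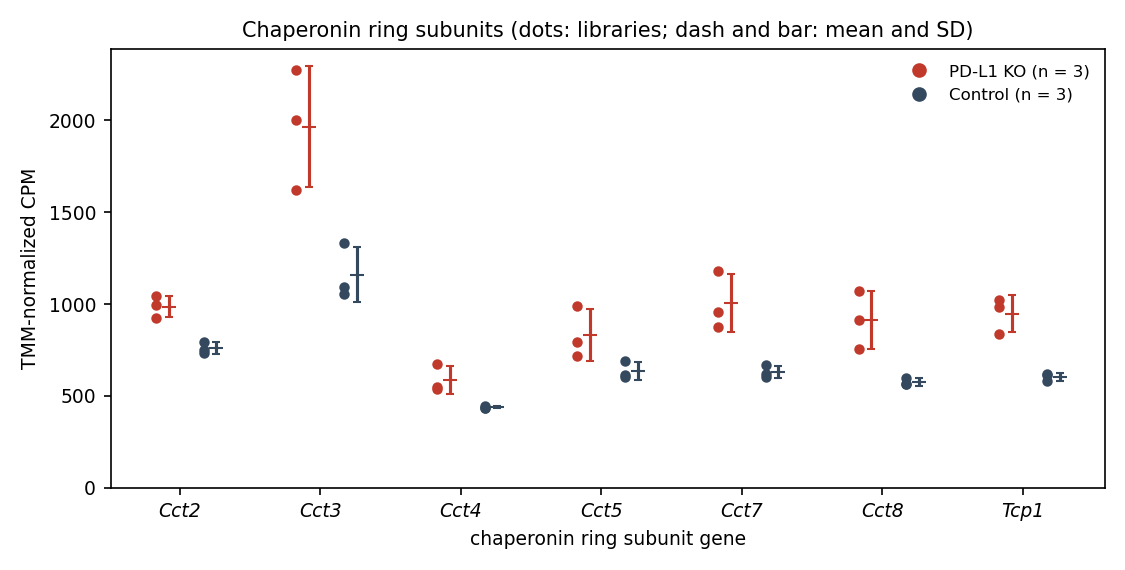
TMM-normalized CPM of the 7 chaperonin ring genes in each library (dots), with mean and SD (n = 3), PD-L1 KO in red to the left of Control in dark blue. Every PD-L1 KO library is above every Control library for each gene, from 538 against at most 446 CPM for Cct4 to 1618 against at most 1331 CPM for Cct3.

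The ring protein holds its subunits in equal number, but the transcripts, here with Cct6a added to the 7 members, were not at equal level. Per kilobase of the main transcript, Cct3 was highest at 994 ± 166 CPM in PD-L1 KO and 586 ± 75.7 in Control (SD, n = 3). Cct4 was lowest, at 237 ± 31.0 and 177 ± 2.69. The 7 members stood in the order Cct3, Cct2, Cct5, Cct7, Tcp1, Cct8 and Cct4 in both groups, while Cct6a lay below Cct8 in PD-L1 KO (376 ± 61.9) and above Cct7 in Control (299 ± 15.2). In PD-L1 KO, Cct7 (411 ± 64.9), Tcp1 (388 ± 40.3), Cct8 (381 ± 66.2) and Cct6a were not apart beyond their spread. As a share of the summed level of these 8 genes, Cct5 made up 12%, 12.5% and 11.5% in PD-L1 KO, against 14%, 13.2% and 13.3% in Control, and Cct6a 9.65%, 10.2% and 10.3%, against 11.3%, 11.6% and 12.6%. For these genes alone among the 8 no PD-L1 KO share reached a Control share in this direction, but 3 against 3 libraries cannot go below p = 0.1 and no share passed (two-sided exact permutation p = 0.1, adjusted over 8 genes 0.229). Of 11 genes of prefoldin and other helpers of the ring, 5 were higher (45.5%) and none lower, against 11.8% and 13.5% over all genes. The median of the 11 was 0.53. Without PD-L1 KO library 1, 8 were higher, and without any other single library 1 or 2 were. They included the prefoldin subunits Pfdn6, which hands clients to the ring (1.06, SE 0.19, adjusted p = 0.0064), and Pfdn2 (0.67, SE 0.16, 0.0178), and the phosducin-like ring regulator Pdcl3 (0.64, SE 0.16, 0.0177).

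Ratios of partners within a library need no scaling between libraries, but partners can still differ in length and chromosome. The Hspe1 main transcript has 774 bases and that of Hspd1 2423. Hsp90ab1 lies on chromosome 17 (median log2 fold change 0.38) and Stip1 on chromosome 19 (0.09). The part of length and chromosome in the ratios was not tested. Of 8 ratios of partners, chosen after the counts were seen, 3 did not overlap between groups. The share over all gene pairs was not taken, so the 3 of 8 cannot be set against a background. Hspe1 and Hsp90ab1 had been called higher and their partners Hspd1 and Stip1 had not, while neither Hsph1 nor Hspa8 had. The permutation p-values below do not allow for this choice. Hspe1 stood at 0.213, 0.261 and 0.21 reads per Hspd1 read in PD-L1 KO, against 0.178, 0.175 and 0.16 in Control. Stip1 stood at 0.099, 0.121 and 0.118 reads per Hsp90ab1 read in PD-L1 KO, against 0.137, 0.14 and 0.146 in Control. Hsph1 stood at 0.0716, 0.0783 and 0.0809 reads per Hspa8 read in PD-L1 KO, against 0.083, 0.0979 and 0.112 in Control. The Hspe1 ratio was above every Control value and the Stip1 and Hsph1 ratios below every Control value in all 3 PD-L1 KO libraries, but none passed: the design cannot go below p = 0.1 (two-sided exact permutation p = 0.1, adjusted over 8 ratios 0.267). Hsp90aa1 stood at 0.416, 0.604 and 0.599 reads per Hsp90ab1 read in PD-L1 KO, against 0.574, 0.697 and 0.843 in Control, with overlap (exact permutation p = 0.3).

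**Figure D4:**
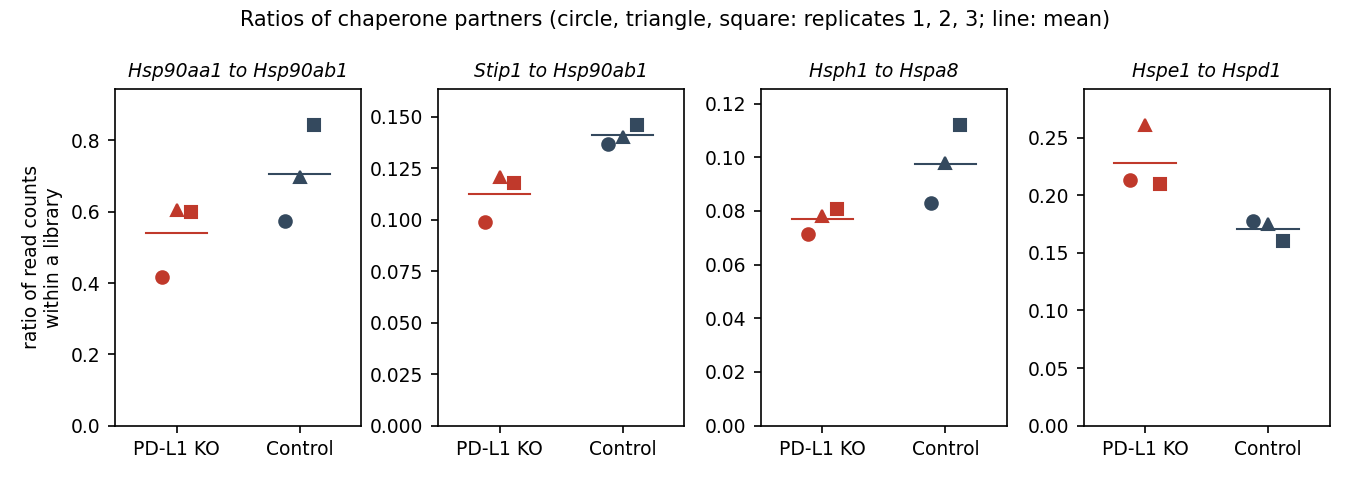
Ratio of read counts of chaperone partners within each library, PD-L1 KO in red on the left and Control in dark blue on the right of each panel; symbols are replicates and lines group means. The groups do not overlap for Hspe1 to Hspd1, Stip1 to Hsp90ab1 and Hsph1 to Hspa8, and overlap for Hsp90aa1 to Hsp90ab1.

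Further co-chaperones were taken from lists. Among 16 co-chaperones of HSP70 and HSP90, 8 were higher (50%) and 1 lower, against 11.8% and 13.5% over all genes. The median of the 16 was 0.40. Without PD-L1 KO library 1, 12 were higher and 1 lower. Without any other single library 2 to 4 were higher (2 without Control library 2) and none was lower. Among the 8 were the HSP90 immunophilins Fkbp4 (0.70, SE 0.13, adjusted p = 0.00719) and Ppid (0.72, SE 0.19, 0.0254), the chaperone-linked ubiquitin ligase Stub1 (0.83, SE 0.16, 0.00743) and Nudc (0.62, SE 0.16, 0.0235). With all libraries Unc45a, a myosin chaperone that binds HSP90, was lower (-0.46, SE 0.14, 0.0413). Among 27 other J proteins and BAG genes, 1 was higher, Bag5 (0.44, SE 0.15, 0.049), and 1 lower, the endosomal J protein Dnajc13 (-0.72, SE 0.17, 0.0174), with a median of 0.18. Each direction held 3.7% of this list, against 11.8% higher and 13.5% lower over all genes. Without PD-L1 KO library 1 the list had 7 higher and 7 lower, and without Control library 2 neither direction had a call in edgeR. Of 16 tested HSF1 target genes, mostly members, 3 were higher (18.8%) and 1 lower (6.25%), at a median of 0.33. Over all genes 11.8% were higher and 13.5% lower. The members with an element printed above had mixed outcomes. Of the 4 with a heat shock element Hspe1 was higher and Hspd1, Dnajb6 and Hsph1 did not pass. Of the 2 with an ER stress element Hsp90b1 was higher and Dnajc3 did not pass. Only perfect matches counted, and members without a promoter window, such as Hsp90aa1, Hsp90ab1 and Hspa8, could not be searched. A link between element and outcome was not tested.

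Position in the genome moved with several of these values. Chromosome 17, with Hsp90ab1 and Tcp1, had a median log2 fold change of 0.38 over 599 tested genes, of which 36.9% were higher. Chromosome 16, with Dnajb11, Cct8, Trap1, Dnaja3 and Hspa13, had a median of 0.24 over 363, of which 24.8% were higher. With length, GC and chromosome medians removed, Hsp90ab1 was at 0.03 (adjusted p = 0.898), Tcp1 at 0.27 (0.14) and Cct8 at 0.19 (0.257), none of them called, while Dnajb11 stayed called at 0.56 (0.0395). Cct3 (0.77, adjusted p = 0.0165), Cct7 (0.64, 0.0198) and Cct4 (0.42, 0.042) also passed there. So did Hsf1, Hsf2, 1 cytosolic HSP70 gene and 1 HSP110-type exchange factor as higher. With length and GC alone removed, 7 members were higher: Hsf1, Hsf2, Dnajb11, Cct3, Cct7, Cct8 and Tcp1. The part of transcript length and of chromosome in the differences was not tested.

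**Figure D5:**
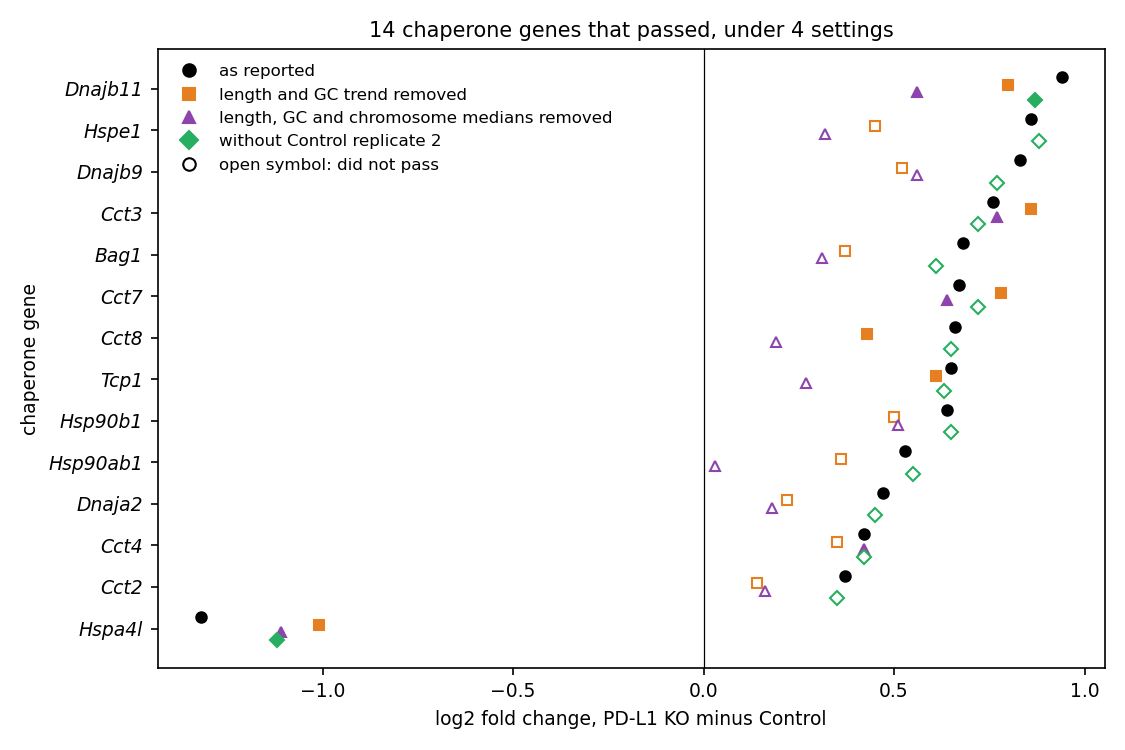
Log2 fold change (PD-L1 KO minus Control) of the 14 members that passed, as reported and under 3 other settings; filled symbols passed at an adjusted p of 0.05 and open ones did not. Dnajb11 and Hspa4l are filled under all 4 settings, and Hsp90ab1 moves to 0.03 once chromosome medians are removed.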

How the data were processed

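Total RNA (TRIzol) went into KAPA Hyper Prep libraries, per the labels' protocols. Trimmomatic 0.39, STAR 2.7.5c, StringTie 2.1.7 and build mm10 are named, without roles, per the submitters' processing notes. The deposited values are unscaled read counts per gene symbol, 1 column per library; the tool that assigned reads to genes, and its strand rule, was not given in the sources used here. Columns were matched to samples by name.

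Genes were filtered with edgeR's filterByExpr (11453 of 31205 kept), scaled by TMM and tested by quasi-likelihood in edgeR 4.0.16 under R 4.3.3 (limma 3.58.1 and DESeq2 1.42.0 served for alternatives), two-sided, with Benjamini-Hochberg adjustment over all genes. Every adjusted p is from that test unless another is named. CPM are TMM-normalized; fold changes are PD-L1 KO over Control. SE is the absolute log2 fold change over the square root of F. The common biological coefficient of variation was 17.5%. Replicates were not duplicates: their counts differed beyond sampling noise. Floors of 3 counts cover counting error only.

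Positions and exon lengths came from GENCODE M21 (GRCm38, the mm10 assembly); 30194 symbols matched directly and 309 through another symbol. Levels per kilobase use the basic-set transcript with the longest coding sequence. Sequences are RefSeq's. The members and lists were chosen with earlier results of these data known. All members are accounted for; up to 4 called genes without overlap are named per further list. The edgeR step and the length correction were tested on simulated counts. Alternatives were other scalings, filters and tests, the replicate number as a block, length, GC and chromosome offsets, and leaving out each library.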

Additional observations from a re-analysis of the deposited data

How the results depend on the processing

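In place of 13 members higher and 1 lower, total-count scaling gave 8 higher, removal of length and GC trends 7 (8 once the replicate block was added), and removal of length, GC and chromosome medians 8. DESeq2's Wald test gave 18. Without the low count filter 2 members were lower, Hspa1b joining Hspa4l. The members' median of 0.38 was 0.23 with total-count scaling and 0.26 with the length of the main transcript in the correction, an alternative chosen after seeing the data that gave 9 members higher. Over all genes, 1353 were higher and 1543 lower; total-count scaling gave 667 higher, chromosome medians 736 higher and 995 lower, and the main transcript length 856 higher. Leaving out each library gave 1 to 22 members higher, 1 lower throughout, member medians of 0.28 to 0.46, 166 to 2346 genes higher and 472 to 2616 lower. The fewest calls came without Control replicate 2 and the most without PD-L1 KO replicate 1. The cause of these moves was not tested. No called member changed sign in any setting.

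The replicate numbers share no stated origin. Deviations of same-numbered libraries correlated at 0.154, -0.0644 and 0.358, so the numbers were not taken as pairs. With the replicate block, 11 members were higher and 1 lower (1480 and 1732 over all genes), Cct2 and Cct4 losing their calls. With 3 libraries per group, p-values of single ratios and shares could not go below 0.1.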
